A study of Mus musculus with 2 samples.

Results

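The genes described here are 32 members of glycolysis and of the hypoxia-inducible factor (HIF) target group, taken by symbol from the 27998 genes of the deposited gene list, all of which were found. Of these, 17 belong to glucose uptake, glycolysis and lactate export (Slc2a1, Slc2a3, Hk1, Hk2, Gpi1, Pfkl, Pfkp, Aldoa, Aldoc, Tpi1, Gapdh, Pgk1, Pgam1, Eno1, Pkm, Ldha and Slc16a3), and 15 are other HIF-linked genes (Pdk1, Bnip3, Hilpda, Egln1, Egln3, Ero1l, Ndrg1, Vegfa, Adm, P4ha1, Fam162a, Ddit4, Mif, Hif1a and Higd1a). They were measured in 2 droplet single-cell libraries, 1 control and 1 anti-PD-1, of viable CD45+ cells sorted from MC38 tumours. MC38 is a mouse colon carcinoma line. Both groups were C57BL/6J mice carrying intradermal tumours at 4 sites per mouse, grown for 7 days. Tumours then received either a control injection, whose content the labels do not give, or an antibody against the inhibitory T-cell receptor PD-1 (200 µg daily for each mouse) for 3 days, and were collected on day 10. No age, sex or number of mice per library is given in the sources used here, and several tumours of a mouse may stand behind a library.

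Glycolysis turns glucose into pyruvate, which lactate dehydrogenase converts to lactate for export when respiration is limited or bypassed. Under low oxygen the prolyl hydroxylases (Egln genes) no longer mark HIF-1α for degradation, and HIF with its partner ARNT binds the core RCGTG of hypoxia response elements near genes of glucose uptake, most glycolytic steps, mitophagy, angiogenesis and lipid storage. In tumours, macrophages, neutrophils and T cells in poorly perfused regions are known to express these genes, and activated immune cells can also express the glycolytic genes through other pathways such as MYC and mTOR.

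The promoters of 4 members that figure in the results are shown first because the members share a transcription factor by their selection. They are the bases upstream of a RefSeq start (GRCm38.p6) on the gene's strand, 5′ to 3′, with each ACGTG (or CACGT, its reverse complement) in capitals. Ldha (lactate dehydrogenase A, chr7:46845554-46845803, + strand) is shown at an internal start, Hk2 (hexokinase 2, chr6:82774455-82774704, − strand), Bnip3 (a mitophagy receptor, chr7:138909520-138909756, − strand) and Egln3 (a HIF prolyl hydroxylase and itself a HIF target, chr12:54203875-54204124, − strand) at their gene starts.
Ldha: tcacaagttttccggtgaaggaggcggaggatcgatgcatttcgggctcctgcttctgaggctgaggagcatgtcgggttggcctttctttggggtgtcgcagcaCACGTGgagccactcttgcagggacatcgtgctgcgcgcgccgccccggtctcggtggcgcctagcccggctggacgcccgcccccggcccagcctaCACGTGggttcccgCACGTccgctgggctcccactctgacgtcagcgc
Hk2: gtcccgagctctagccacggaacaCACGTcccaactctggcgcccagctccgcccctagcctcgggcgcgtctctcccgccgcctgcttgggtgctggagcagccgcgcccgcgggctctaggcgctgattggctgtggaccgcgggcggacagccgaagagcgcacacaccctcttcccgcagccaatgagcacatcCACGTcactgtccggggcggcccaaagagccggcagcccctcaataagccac
Bnip3: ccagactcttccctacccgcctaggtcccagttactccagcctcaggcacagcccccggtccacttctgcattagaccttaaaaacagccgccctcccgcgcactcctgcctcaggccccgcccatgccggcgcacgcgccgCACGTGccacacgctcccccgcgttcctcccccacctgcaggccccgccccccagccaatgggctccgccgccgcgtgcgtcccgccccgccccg
Egln3: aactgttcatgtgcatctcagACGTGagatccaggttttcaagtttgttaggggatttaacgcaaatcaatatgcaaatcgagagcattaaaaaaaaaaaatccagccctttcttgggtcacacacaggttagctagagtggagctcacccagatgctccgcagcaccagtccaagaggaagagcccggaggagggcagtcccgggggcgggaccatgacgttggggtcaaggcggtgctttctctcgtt
The Ldha window held 5 matches on both strands together, of which 4 are a pair of CACGTG read on either strand. Over the 250 bases upstream of a start, ACGTG on either strand was present for 18 of the 30 members with an entry (60%), against 18.5% of 27025 genes, and GCGTG for 20 of 30 (66.7%), against 30.9%. The 15 members with ACGTG among the 18 of at least 60% GC made 83.3%, against 25.5% of all genes of that GC content, whereas GCGTG stood at 66.7% of those members against 57.3% of such genes. By role, ACGTG stood upstream of 8 of 16 glycolytic members and of 10 of 14 other HIF-linked members. Gpi1, Tpi1 and Mif had neither motif in this window. These are letter matches in one window per start and say nothing about binding in these cells.

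Each library is a single sample, so no test between conditions is possible. Intervals below are 95% limits of counting error only and do not cover differences between animals. A level is in CPM, a class's summed UMIs of a gene scaled to 1000000 UMIs of that class. A ratio is the log2 of the anti-PD-1 level divided by the control level, given for members with at least 20 UMIs over both libraries in classes with at least 20 cells in each. Called lower or higher means a ratio of at least 1.5-fold. Counts under alternative processing have no share of all genes to stand beside, except those of cells thinned to 1000 UMIs. Barcodes with at least 1000 UMIs and at most 10% mitochondrial UMIs numbered 1174 in the control library (median 3287 UMIs) and 3321 in the anti-PD-1 library (median 2763). Marker gates placed 87.7% and 90.6% of them in classes, 4 barcodes occurred in both libraries, and cells passing more than 1 gate (30 and 47) were left out, which is how doublets were treated. Ptprc (CD45) was detected in every class described. Krt8 had 0 UMIs in all of them, Krt18 had 0 to 4, most in control Tregs, and Epcam had 0 to 12. Class sizes differed widely, and the control library held only 7 neutrophils at this minimum, 71 CD8 T cells against 1053, and 17 conventional CD4 T cells against 65.

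Among the classes, summed glycolytic members were highest in control regulatory T cells (Treg, Foxp3-positive T cells), at 9404 CPM (9030 to 9790, 81 cells). Control macrophages followed at 8411 CPM (8238 to 8586, 170 cells), then conventional CD4 T cells at 7403 (6661 to 8205) and monocytes at 7202 (7009 to 7399), whose intervals overlap. NK cells were lowest in the control library, at 3479 CPM (3368 to 3594, 299 cells), below dendritic cells at 4606 (4357 to 4865). In the anti-PD-1 library the order changed: conventional CD4 T cells were at 7400 CPM (7006 to 7811), neutrophils at 6858 (6610 to 7113) and macrophages at 6719 (6574 to 6867), and the intervals of neighbours in this order overlap. Tregs stood at 5778 CPM (5551 to 6012) there, and dendritic cells at 2924 (2776 to 3077) were below NK cells at 3726 (3631 to 3822).

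The other HIF-linked members followed another order. Neutrophils of the anti-PD-1 library were highest, with 3786 CPM (3602 to 3976, 195 cells), ahead of control Tregs at 3367 (3144 to 3601) and control macrophages at 2718 (2620 to 2819). Of all member UMIs in these neutrophils, 35.6% (34.2 to 37.0) came from the 15 other HIF-linked genes. In the other classes with at least 10 cells the share lay between 16.6% in anti-PD-1 monocytes and 26.4% in control Tregs. Tregs kept the same share in both libraries (26.4% and 26.3%), as did NK cells (26.3% and 26.2%). Control monocytes had 23.5% (22.5 to 24.5) and anti-PD-1 monocytes 16.6% (15.9 to 17.3). Conventional CD4 T cells went the other way, from 19.7% (16.1 to 23.7) in control to 25.9% (23.9 to 28.0) after PD-1 blockade. Control first, the other HIF-linked sums of this class were 1815 CPM (1458 to 2233) against 2592 (2361 to 2840). These intervals do not overlap, but the control value rests on 17 cells, under the 20 required for a ratio.

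**Figure D1:**
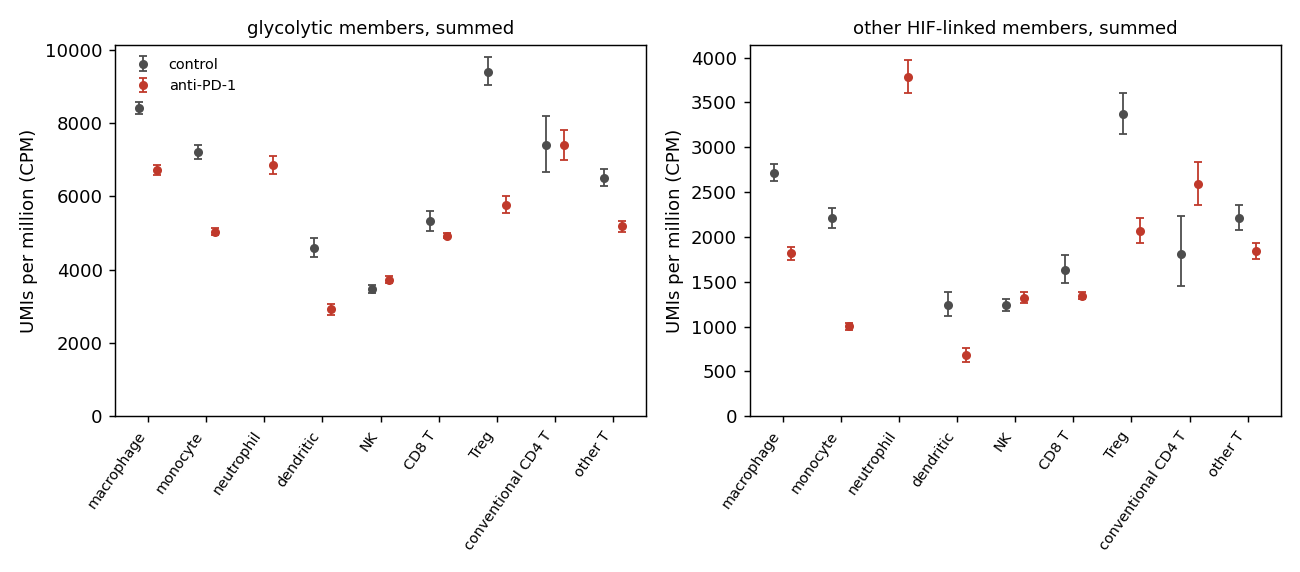
Summed CPM of the 17 glycolytic members (left) and the 15 other HIF-linked members (right) by marker-gated class, control in grey and anti-PD-1 in red, with exact Poisson 95% limits. Neutrophils appear for anti-PD-1 only. The neutrophil point is the highest on the right (3786 CPM) but not on the left, and NK cells lie low on both sides.

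Glucose enters through the transporters Slc2a1 (GLUT1) and Slc2a3 (GLUT3), whose levels differed between classes. Slc2a1 was at 109 CPM in control and 61.9 CPM in anti-PD-1 macrophages and at 97.4 CPM in neutrophils, against 17 and 21.7 CPM in NK cells. Among T cells it was at 78.7 CPM (43.0 to 132) in anti-PD-1 conventional CD4 T cells and at 55.4 and 19.0 CPM in Tregs. Slc2a3 had only 2 UMIs in the macrophages of each library (1.87 and 1.65 CPM), while it reached 63.3 CPM in control Tregs, 30.8 CPM in anti-PD-1 Tregs and 64.2 CPM in neutrophils. Macrophages therefore showed the former transporter and almost none of the latter, and their intervals for Slc2a3 (up to 6.77 CPM) lie below those of Tregs and neutrophils. In CD8 T cells Slc2a3 rested on 2 UMIs in the control (7.21 CPM) and on 120 in the anti-PD-1 library (32.3 CPM). The counting interval of that log2 ratio runs from 0.28 to 5.23.

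The lactate exporter Slc16a3 (MCT4) was highest in neutrophils, at 475 CPM (412 to 546), with a UMI in 32.8% of cells thinned to 1000 UMIs. Tregs were next, at 142 CPM in control and 173 CPM in anti-PD-1, near monocytes (140 and 116 CPM) and macrophages (120 and 106 CPM). CD8 T cells (25.2 and 18.9 CPM) and NK cells (14.2 and 19.8 CPM) had little. The exporter thus separated Tregs from CD8 T cells, although both expressed Ldha, whose product makes lactate: 1468 and 1146 CPM in Tregs, 826 and 886 CPM in CD8 T cells.

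Hilpda, an inhibitor of lipid droplet breakdown induced by HIF, was at 1908 CPM (1778 to 2045) in anti-PD-1 neutrophils and had a UMI in 59.0% of their thinned cells. The next highest levels were 558 CPM in control Tregs and 540 CPM in anti-PD-1 conventional CD4 T cells. Dendritic cells had 28.7 and 15.9 CPM. The estimated free RNA, about 1.67% and 1.87% of the UMIs of NK and T cells, would add 9.33 and 8.24 CPM of Hilpda to a class, so the dendritic level is near that background and the neutrophil, Treg and conventional CD4 T-cell levels are far above it. Egln3 was also highest in neutrophils, at 135 CPM (103 to 175), with 38.4 and 8.25 CPM in macrophages and 5.68 and 5.11 CPM in NK cells.

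Vegfa, the angiogenic growth factor, was read in myeloid cells and in NK cells but not in most T cells. Macrophages had 73.1 CPM in control and 42.1 CPM in anti-PD-1, and NK cells had 39.8 CPM (28.7 to 53.8, 42 UMIs) and 36.4 CPM (27.6 to 47.2, 57 UMIs). Tregs, whose median depths of 2974 and 2232 UMIs were close to the 2962 and 2335 UMIs of NK cells, had 0 UMIs in both libraries, for which the floor of 3 UMIs allows up to 11.9 and 7.12 CPM. The other T cells also had 0 (up to 6.57 and 3.35 CPM), and 1053 anti-PD-1 CD8 T cells held 4 UMIs. In thinned cells 5.35% and 5.74% of NK cells had a Vegfa UMI against 0 of 81 and 0 of 157 Tregs, for which the floor of 3 counts allows shares of cells with a UMI of up to 3.70% and 1.91%.

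Hif1a itself, the oxygen-regulated subunit, was highest in CD4 T-cell classes: 469 and 742 CPM in conventional CD4 T cells, 411 and 467 CPM in Tregs, against 162 and 178 CPM in CD8 T cells and 91.9 and 111 CPM in NK cells. Its regulation is largely at the protein level, so the mRNA is no measure of HIF activity. Ddit4 (REDD1), which restrains mTORC1, was at 526 CPM in control and 306 CPM in anti-PD-1 Tregs, against 217 and 179 CPM in other T cells, 66.5 and 32.2 CPM in macrophages and 11.9 CPM in neutrophils. Ndrg1, a stress-response gene, was highest in dendritic cells, at 126 CPM (87.6 to 175) and 175 CPM (140 to 216). Adm, which encodes the vasodilator adrenomedullin, had at most 5 UMIs in any class and was not measured further.

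**Figure D2:**
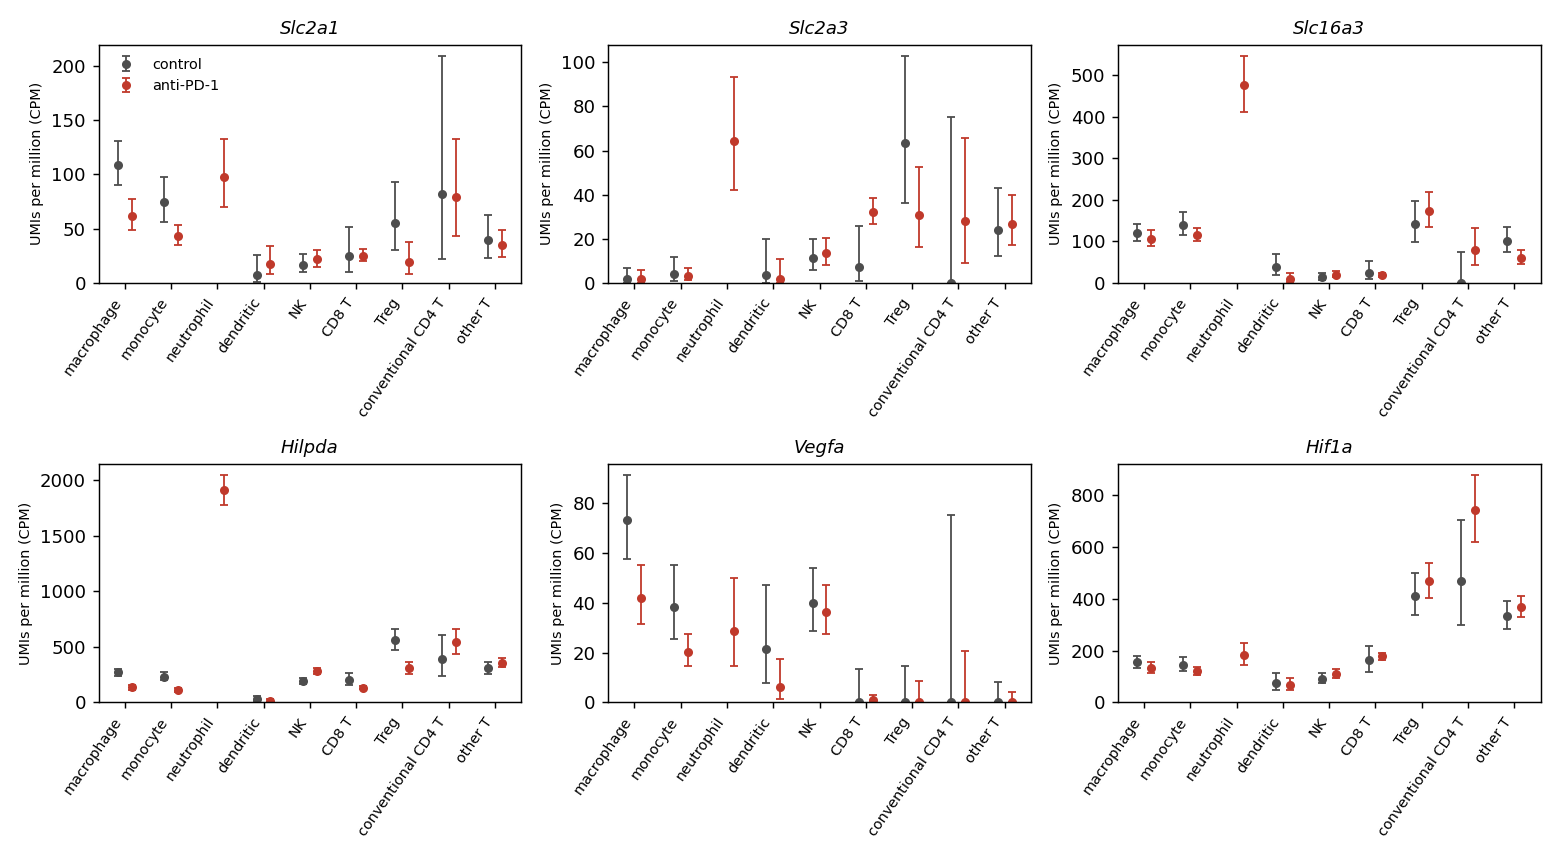
CPM of Slc2a1, Slc2a3, Slc16a3, Hilpda, Vegfa and Hif1a by class, control in grey and anti-PD-1 in red, with exact Poisson 95% limits. Slc2a3 is near 0 in macrophages, Vegfa is at 0 in Tregs and present in NK cells, and Hilpda and Slc16a3 are highest in neutrophils.

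The comparison of the libraries asks how the members stand after PD-1 blockade in each class. Members were mostly lower in the anti-PD-1 library in myeloid cells and Tregs, and near the control level in NK cells. In macrophages 14 of 30 measured members were at least 1.5-fold lower and none higher, where 10.6% of all measured genes were that much lower and 11.2% higher. In monocytes it was 21 of 30 (background 12.2%), in dendritic cells 9 of 15 (background 11.7%), in Tregs 19 of 25 (background 10.0%) and in other T cells, those outside the CD8, Treg and conventional CD4 rules, 7 of 29 (background 7.97%). In CD8 T cells 11 of 30 were lower, where 21.8% of all genes were, with 277396 control UMIs against 3710177. In CD8 T cells thinned to 1000 UMIs it was 11 of 23 (all genes 36.2%), with 71 control cells against 1053. With totals this unequal, raising a low control count to the floor can call a sparse gene lower. The CD8 counts and their backgrounds can depend on this, so no excess of lower members is read from them. Hk1, Pkm, Hif1a and Egln1 were measured and called lower in no class. NK cells had 1 of 28 lower (background 6.13%) and 1 higher (background 12.1%). No member was called higher in monocytes (background 16.9%), dendritic cells (22.6%) or Tregs (13.3%), and 1 was in CD8 T cells (13.7%) and 1 in other T cells (13.7%).

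By role, the median log2 ratio of the glycolytic members was −0.48 in macrophages, −0.72 in monocytes, −0.91 in dendritic cells, −0.82 in Tregs, −0.32 in other T cells, −0.13 in CD8 T cells and 0.14 in NK cells. For the other HIF-linked members the medians were −0.66, −1.06, −0.96, −0.82, −0.28, −0.34 and 0.04 in the same order. The median over all measured genes lay between −0.07 (CD8 T cells) and 0.12 (dendritic cells). In monocytes the summed other HIF-linked members differed more, at −1.14, than the summed glycolytic members, at −0.52. These monocyte sums were at −0.77 and −0.31 in cells thinned to 1000 UMIs, and at −0.67 and −0.22 with gates read on thinned cells. In Tregs both sums differed by the same amount, −0.70. Macrophage sums were at −0.58 for the other HIF-linked and −0.32 for the glycolytic members, and at −0.28 and −0.10 with gates read on thinned cells.

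**Figure D3:**
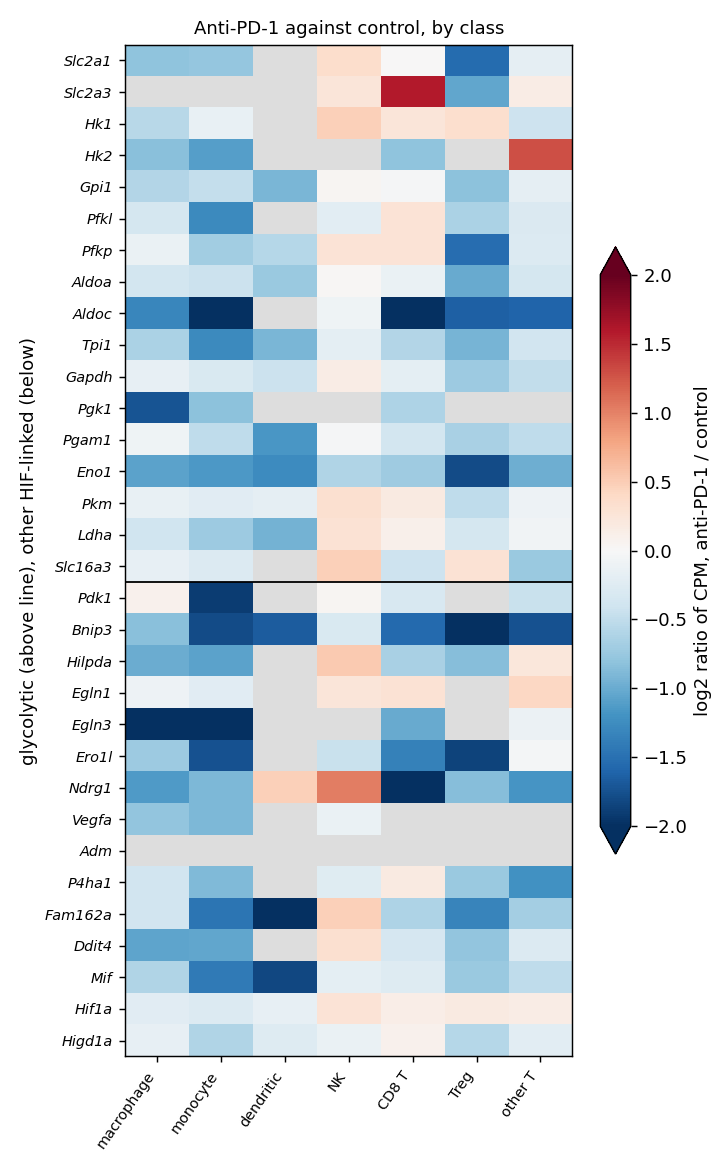
Log2 ratio of CPM, anti-PD-1 over control, for each member (rows) in each class with a ratio (columns). Blue is lower and red higher in anti-PD-1, with colours saturating at 2, and grey marks members with under 20 UMIs. The Treg and monocyte columns are mostly blue and the NK column is pale.

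Bnip3, whose product tags mitochondria for removal, had the largest difference in Tregs: 253 CPM in control and 57.0 CPM in anti-PD-1, which is −2.15 (−2.89 to −1.46) as log2. It was also lower in monocytes (173 and 49.9 CPM, −1.79) and in other T cells (142 and 42.5 CPM, −1.75), and in macrophages (189 and 106 CPM, −0.84). With gates read on thinned cells Bnip3 was at −0.95 in monocytes. In NK cells the interval of its ratio includes 0 (18.9 and 15.3 CPM). Bnip3 (chr7:138890836-138909519) was called lower in 6 of the 7 classes.

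Eno1 (chr4:150236721-150248879), the enolase of most tissues, was the member called lower in all 7 classes. Its ratio was −1.78 (−2.32 to −1.26) in Tregs (376 and 109 CPM), −1.07 (−1.33 to −0.81) in macrophages (337 and 161 CPM) and −0.60 (−0.86 to −0.33) in NK cells (227 and 150 CPM). The NK call lay just past the threshold, and the ratio was under 1.5-fold with gate minimums doubled (−0.46), at a minimum of 1500 UMIs (−0.57), with gates read on thinned cells (−0.55) and without the lower quartile of cells by UMIs (−0.57). The near-identical copy Eno1b is listed separately with 82 and 153 UMIs, beside 1333 and 1737 for Eno1, so reads may be divided between them and the Eno1 level is uncertain. Reads of Gapdh, Aldoa, Ldha, Pkm and Mif can likewise be lost to processed pseudogenes. Pgk1, called lower in all 3 classes where it was measured, had only 105 and 128 UMIs in the libraries. Whether its reads were lost in this way was not tested.

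Among the upper steps of glycolysis in Tregs, Slc2a1 was at 55.4 and 19.0 CPM (−1.54, 14 and 8 UMIs) and the phosphofructokinase Pfkp at 206 and 71.2 CPM (−1.53, −2.23 to −0.86). The aldolase Aldoa was at 1547 and 766 CPM (−1.01), and the minor aldolase Aldoc at 51.4 and 16.6 CPM (−1.63). Of the lower steps, Gapdh was at 2516 and 1526 CPM (−0.72), while Pkm (1476 and 1042 CPM) and Ldha stayed within 1.5-fold, and Slc16a3 was somewhat above the control level. Of the 15 glycolytic members measured in Tregs 11 were called lower, and the other 4 were Hk1, Pkm, Ldha and Slc16a3. Ero1l, an oxidase of disulphide formation in the endoplasmic reticulum, was at 111 and 30.8 CPM (−1.84). Cycling cells, those with at least 3 UMIs of proliferation genes, made 3.70% of control and 8.28% of anti-PD-1 Tregs. The tumour epithelial markers summed to 39.6 and 19.0 CPM there, with Krt8 at 0 and Krt18 at 4 and 2 UMIs. Without cycling cells 18 Treg members were called lower, with Bnip3 at −1.86. In cells thinned to 1000 UMIs it was 9 of 18 (all genes 10.4%), with sums at −0.54 and −0.44, and with gates read on thinned cells it was 11. Only the count of 9 has a share of all genes to stand beside. The part of epithelial RNA was not tested.

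In monocytes, Ero1l was at 120 and 35.9 CPM (−1.74, but −0.52 with gates read on thinned cells), Fam162a, a mitochondrial HIF target linked to cell death, at 131 and 47.5 CPM (−1.46), and the cytokine Mif at 820 and 307 CPM (−1.42, −1.58 to −1.25). The triose phosphate isomerase Tpi1 was at 636 and 262 CPM (−1.28, −1.46 to −1.10), and Pfkl at 51.8 and 21.3 CPM (−1.28). All 30 measured members had a ratio below 0. The make-up of the class also moved. At least 5 UMIs of S100a8 and S100a9 were found in 108 of 358 anti-PD-1 but in 1 of 170 control monocytes, and those 108 cells held the neutrophil granule gene Ngp at 1373 CPM against 0.87 CPM in the rest. Cycling cells made 17.3% of anti-PD-1 and 0 of 170 control monocytes. Without the S100a8- and S100a9-positive cells 14 members were called lower, the other HIF-linked sum was at −0.81, the glycolytic sum at −0.48 and Bnip3 at −1.20. Without cycling cells 15 members were called lower, with the same sums at −0.92 and −0.51 and Bnip3 at −1.41. No share of all genes was taken for either count, so neither can be set against one.

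In macrophages, Ndrg1 was at 58.1 and 26.4 CPM (−1.14), Ddit4 at 66.5 and 32.2 CPM (−1.05), Hilpda at 270 and 135 CPM (−1.0, −1.28 to −0.71) and Hk2, the inducible hexokinase, at 66.5 and 37.1 CPM (−0.84). Of these, Hk2 was at −0.08 and Hilpda at −0.55 in thinned cells, and Ndrg1 at −0.49 and Bnip3 at −0.52 with gates read on thinned cells, all under 1.5-fold. The most abundant enzymes differed less: Gapdh was at 2285 and 2043 CPM and Pkm at 1164 and 1049 CPM, both within 1.5-fold. Egln3 was low but differed more, with 41 and 10 UMIs (−2.22, −3.38 to −1.20). In cells thinned to 1000 UMIs, where fewer members reach 20 UMIs, 7 of 22 were lower (all genes 12.5%), and the glycolytic sum stood at −0.20. Cycling cells made 6.47% of control and 14.4% of anti-PD-1 macrophages, and at least 5 UMIs of S100a8 and S100a9 were found in 2 of 170 and 15 of 194. Without cycling cells the other HIF-linked and glycolytic sums were at −0.61 and −0.31, and without the S100a8- and S100a9-positive cells at −0.46 and −0.23.

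Dendritic cells had lower Fam162a (108 and 25.9 CPM, −2.06), Mif (611 and 173 CPM, −1.82), Bnip3 (50.3 and 15.9 CPM, −1.66) and Eno1 (104 and 43.8 CPM, −1.25). Their Ldha (672 and 348 CPM, −0.95) rested on few cells: without the deepest 5% of cells it was at −0.25 and Pgam1, the phosphoglycerate mutase, at −0.19 in place of −1.16. There 5 members were called lower, with no share of all genes taken. Ndrg1 was on the higher side (0.48).

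In CD8 T cells Ero1l was at 57.7 and 22.6 CPM (−1.35, 16 and 84 UMIs), Eno1 at 227 and 139 CPM (−0.71) and Hilpda at 205 and 131 CPM (−0.65, −1.04 to −0.22). Ldha (0.10), Pkm (465 and 527 CPM) and Hif1a were at or slightly above the control level. Fam162a was at 137 and 89.8 CPM (−0.61), Tpi1 at 270 and 180 CPM (−0.59) and Pgam1 at 256 and 199 CPM (−0.36). With genes of at least 50 UMIs, 6 CD8 T-cell members were called lower, with no share of all genes taken. In other T cells Slc16a3 was at 101 and 60.4 CPM (−0.74), Eno1 at 270 and 136 CPM (−0.98), Fam162a at 162 and 102 CPM (−0.67), Pgam1 at 267 and 188 CPM (−0.51) and Mif at 596 and 419 CPM (−0.51). Hk2 was the member on the higher side, with 5 and 24 UMIs and an interval from −0.13 to 3.04.

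NK cells had Hilpda at 194 and 279 CPM (0.52, 0.28 to 0.77), Fam162a at 89.0 and 123 CPM (0.47), Pkm at 350 and 437 CPM (0.32), Ddit4 at 62.5 and 78.0 CPM (0.32) and Ldha at 639 and 781 CPM (0.29, 0.15 to 0.43). These values are under 1.5-fold. Hilpda was at 0.90 with gates read on thinned cells and Fam162a reached 0.76 under the alternatives, both past 1.5-fold. Pkm was at 0.07 in thinned cells and Ldha at 0.10 with each cell weighted alike. Ndrg1 was called higher from 17 and 51 UMIs (1.02, 0.20 to 1.90). The summed glycolytic members were at 0.10, but at −0.07 when each cell was weighted alike and −0.04 in thinned cells, so the direction of this sum depended on the weighting of cells.

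Of further genes of the pathways, chosen with earlier results of these data known, 8 of 17 glycolysis genes were measured in monocytes. Of these, 5 were called lower (all genes 12.2%), among them Pgm2 (42.2 and 13.1 CPM) and the activator of phosphofructokinase Pfkfb3 (43.6 and 19.4 CPM), and 3 higher (all genes 16.9%), led by the transporter Slc2a6 (20.4 and 43.6 CPM). In macrophages 2 of 8 were lower and 3 higher, where 10.6% and 11.2% of all genes were. Of 28 further HIF pathway genes, 17 were measured in macrophages, with 6 lower and 1 higher. Arg1, the arginase, was at 2863 and 1375 CPM (−1.06), Ankrd37 at 56.2 and 23.9 CPM and Cxcr4 at 114 and 30.5 CPM. Nos2, the inducible nitric oxide synthase that shares arginine with Arg1, was the 1 on the higher side, from 6 and 20 UMIs (1.55). In monocytes 7 of 15 further HIF pathway genes were lower and 2 higher (all genes 12.2% and 16.9%). Dendritic cells had 0 of 6 lower and 0 higher (11.7% and 22.6%), and of 3 further glycolysis genes 1 lower and 2 higher. Tregs had 2 of 5 lower and 1 higher (10.0% and 13.3%). Other T cells had 2 of 11 and 1 (7.97% and 13.7%), and NK cells 0 of 13 and 3 (6.13% and 12.1%). CD8 T cells had 7 of 17 and 1 (21.8% and 13.7%), under the floor limit given above.

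Because Arg1 is named in the title of the series, the members were set against it within macrophages. Cells were thinned to 1000 UMIs, and those with an Arg1 UMI were compared with those without, in each library on its own. Arg1-positive cells made 57.6% of control (98 of 170) and 36.6% of anti-PD-1 macrophages (71 of 194). In the control, 12 of 15 measured members were at least 1.5-fold higher in the Arg1-positive cells, where 12.7% of all genes were. In the anti-PD-1 library it was 12 of 16 (background 15.6%). No member was called lower in either library, where 13.2% and 17.0% of all genes were.

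Hilpda was the member with the largest ratio in both: 69.4 and 408 CPM in Arg1-negative and Arg1-positive control macrophages (log2 2.56, 1.21 to 4.25) and 40.7 and 423 CPM in anti-PD-1 (3.38, 2.00 to 5.10). Tpi1 was at 417 and 980 CPM (1.23) and at 358 and 1000 CPM (1.48). Bnip3 was at 97.2 and 337 CPM (1.79) in the control. Hif1a (0.33 and 0.26) and Gpi1 (0.37 and 0.23) differed less than 1.5-fold. The summed glycolytic members were higher by 0.81 and 0.91 (log2), and the other HIF-linked members by 0.99 and 1.28. Arg1-positive and Arg1-negative macrophages had median depths of 5992 and 5138 UMIs in the control and of 6068 and 5797 UMIs in anti-PD-1. The C1q genes stood at 12122 and 11028 CPM in Arg1-positive and Arg1-negative control cells, and at 13732 and 8098 CPM in anti-PD-1, where 9.86% and 17.1% were cycling. The part of the C1q difference was not tested. Without the S100a8- and S100a9-positive cells 9 members were called higher in anti-PD-1. With cells thinned to 500 UMIs from a minimum of 500, 7 members were called higher in anti-PD-1. No share of all genes was taken for either count.

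Monocytes gave the same direction with fewer Arg1-positive cells, 30 of 170 and 28 of 358. In the control 13 of 14 members were higher in them (background 18.9%) and in anti-PD-1 15 of 17 (background 36.1%). With so few Arg1-positive cells the floor of 3 UMIs hinders a call of lower. In anti-PD-1 it can also call a sparse gene higher, so the count and its background can depend on it. The sums do not rest on this floor. The glycolytic sums were higher by 1.45 in control and 1.15 in anti-PD-1 (log2), and the other HIF-linked sums by 2.19 and 2.09. In anti-PD-1 the Arg1-negative monocytes included the S100a8- and S100a9-positive cells (11873 CPM of both genes, against 71.4 CPM in Arg1-positive ones). Without those cells 14 members were called higher, with no share of all genes taken. Mif was at 436 and 2400 CPM (2.46) in control and at 191 and 1429 CPM (2.90) in anti-PD-1 monocytes. The highest summed glycolytic level of any stratum, 13600 CPM, belonged to the Arg1-positive control monocytes.

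**Figure D4:**
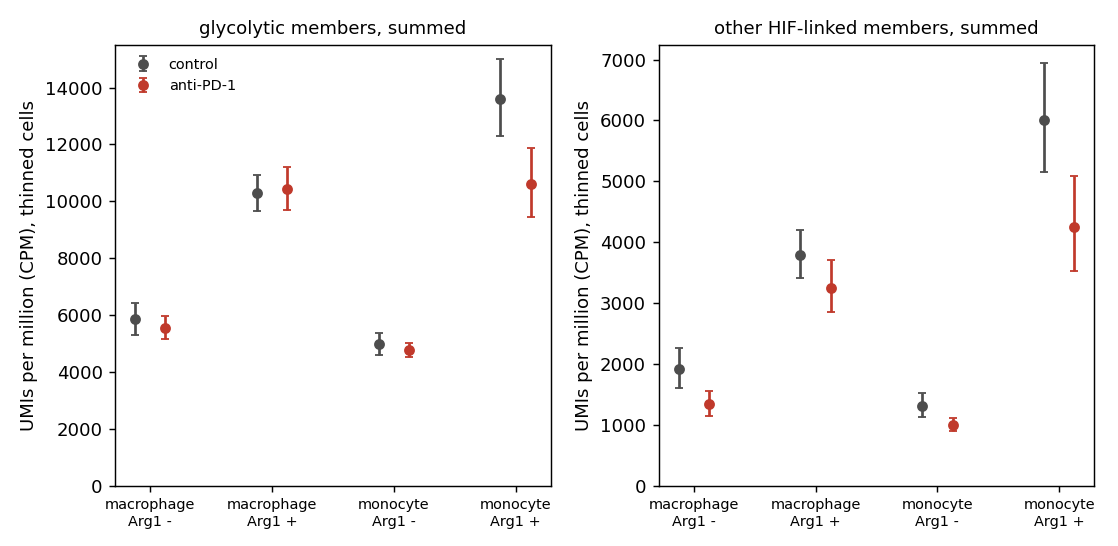
Summed CPM of glycolytic (left) and other HIF-linked members (right) in cells thinned to 1000 UMIs, by class and Arg1 status, control in grey and anti-PD-1 in red, with exact Poisson 95% limits. Arg1-positive cells lie above Arg1-negative cells in both classes and libraries.

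Within Arg1-positive macrophages the glycolytic sums of the libraries were close, at 10286 CPM in control and 10437 CPM in anti-PD-1 (log2 0.02, −0.12 to 0.16), and stayed between −0.07 and 0.08 under the alternatives tried. The other HIF-linked sum was 3796 and 3254 CPM (−0.22, −0.47 to 0.02), and lay between −0.41 and −0.22 under the alternatives. Of 18 members measured in these cells 6 were called lower (background 14.6%) and 3 higher (background 15.5%). Within Arg1-negative macrophages the glycolytic sum was 5847 and 5553 CPM (−0.07, −0.25 to 0.10) and the other HIF-linked sum 1917 and 1341 CPM (−0.51, −0.85 to −0.18). These last values depend on how Arg1 was read. Another thinning draw gave 0.12 and 0.08, and reading Arg1 on all UMIs gave −0.55 for the glycolytic sum. Arg1-negative monocytes, 140 and 330 cells, had glycolytic sums of 4971 and 4776 CPM (−0.06, −0.19 to 0.07) and other HIF-linked sums of 1314 and 1000 CPM (−0.39, −0.66 to −0.13). Arg1-positive monocytes, 30 and 28 cells, were lower in anti-PD-1 on both sums: 13600 and 10607 CPM of glycolytic members (−0.36, −0.58 to −0.14) and 6000 and 4250 CPM of other HIF-linked members (−0.50, −0.84 to −0.16). Another thinning draw put that glycolytic ratio at −0.06.

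Over single macrophages, Arg1 was also the gene whose level correlated most with the summed members, first of 966 detected genes when ranked by the smaller of the 2 libraries' values (Pearson r 0.35 over 170 control and 0.28 over 194 anti-PD-1 cells). Lgals3 (0.23 and 0.24), Ubb (0.27 and 0.22) and Fth1 (0.22 and 0.19) followed, then Srgn, Prdx1, Lilrb4a and Capg. These are correlations over cells that share a library and a fixed depth, most are weak, and they are given as a description.

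Cycling cells were compared with the rest, on all UMIs, where at least 20 cycling cells existed, in anti-PD-1 macrophages, monocytes and CD8 T cells. In cycling macrophages (28 cells) 16 of 27 members were at least 1.5-fold lower than in the other 166 (background 15.8%), with Hilpda at 55.7 against 156 CPM (−1.49). In cycling monocytes (62 cells) 14 of 27 were lower (background 18.9%): the other HIF-linked sum was 620 against 1165 CPM (−0.91), while the glycolytic sum was level at 4948 against 5069 CPM. Of the S100a8- and S100a9-positive monocytes 45.4% were cycling, against 5.2% of the rest. In CD8 T cells the member counts were below the shares of all genes. Cycling cells had more Tpi1 (278 against 150 CPM, 0.89), Eno1 (206 against 119 CPM, 0.79), a difference under 1.5-fold in Gapdh (2102 against 1459 CPM, 0.53), and less Hilpda (83.8 against 146 CPM, −0.80). Of 29 members 5 were called higher (background 22.0%) and 4 lower (background 19.8%).

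Other subsets were set side by side in the same way. NK cells with a UMI of Gzmc to Gzmg, granzymes of activated NK cells, had 4 of 16 members higher in anti-PD-1 (background 10.1%), led by Hilpda at 461 against 130 CPM (1.82, 1.26 to 2.39). In control 3 of 14 were higher (background 11.7%), and none was lower, where 22.8% of all genes were. In control NK cells Hilpda was at 197 against 130 CPM (0.59, −0.50 to 1.60). Monocytes with Ace or Treml4, markers of the patrolling type, were below the rest: 9 of 14 members in control (background 15.1%) and 7 of 17 in anti-PD-1 (background 14.0%), with other HIF-linked sums of 579 against 2338 CPM and of 368 against 1359 CPM. CD8 T cells with Gzmb and no Gzmk were near those with Gzmk, at 4643 against 4562 CPM of glycolytic members in anti-PD-1 (0.03, −0.07 to 0.12), with 3 of 20 members higher (background 10.7%) and 1 lower (background 8.20%).

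Cell-to-cell spread was measured in cells thinned to 1000 UMIs as the Fano factor, the variance of a count over its mean, which is 1 for counting noise alone. For the other HIF-linked sum it was 6.37 in neutrophils, 4.42 and 3.25 in monocytes (control and anti-PD-1) and 3.18 and 2.80 in macrophages, against 1.29 and 1.60 in NK cells, 1.37 and 1.42 in CD8 T cells and 2.00 and 1.57 in Tregs. For the glycolytic sum it was 6.44 and 3.07 in monocytes, 4.37 and 4.13 in macrophages, 3.97 and 2.34 in Tregs, 3.49 in neutrophils, 3.44 and 2.45 in NK cells and 2.88 and 2.52 in CD8 T cells. Other T cells were at 4.63 and 2.77 for it, so control other T cells stood above macrophages, and anti-PD-1 conventional CD4 T cells were at 2.53. At a minimum of 500 UMIs with cells thinned to 500, control other T cells were at 2.19 and macrophages at 2.64 and 2.34. For the other HIF-linked sum other T cells were at 1.84 and 1.92 and anti-PD-1 conventional CD4 T cells at 1.84. Dendritic cells were at 1.19 and 1.32 for the other HIF-linked sum, so neutrophils, monocytes and macrophages had the highest values at this depth. With a minimum of 500 UMIs and cells thinned to 500, macrophages were at 1.61 and 1.73, no higher than control Tregs at 1.74, while neutrophils (4.09) and monocytes (2.65 and 2.45) were above them. At a mitochondrial maximum of 5%, control CD8 T cells were at 2.35. A Fano factor of this kind also depends on the mean, which was 4.34 UMIs in neutrophils and 1.11 and 1.18 in NK cells. The variance beyond the mean, divided by the squared mean, gave another order of classes. For the glycolytic sum it was 0.73 and 0.45 in NK cells against 0.40 and 0.43 in macrophages. For the other HIF-linked sum it was 1.60 and 1.79 in monocytes and 1.24 in neutrophils. Macrophages were at 0.73 and 0.88 there, and NK cells at 0.26 and 0.51.

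In neutrophils the median cell had 3 UMIs of other HIF-linked members per 1000, the 90th percentile was 11 and the highest cell had 31, and 38 of 195 cells had none. Of 18 neutrophil members with a mean of at least 0.1 UMI, 11 had a Fano factor of at least 1.5 (background 24.4%), with Hilpda at 5.48 and Fam162a at 4.27. Control macrophages had a median of 2, a 90th percentile of 7 and a highest cell of 16. There 6 of 18 members passed (background 11.0%), and 8 of 16 in anti-PD-1 macrophages (background 11.9%). A member's Fano factor also depends on its mean, and the backgrounds here and below were not matched for it. Of the 6, Gapdh (2.40 UMIs), Mif (1.24), Pkm (1.23), Ldha (1.14) and Aldoa (1.04) had the highest means of the members, and Hilpda had 0.26. The part of abundance in these counts was not tested. Hilpda (2.35 and 2.26), Gapdh (2.05 and 1.93), Mif (1.84 and 1.76), Aldoa and Pkm passed in both. Monocytes had 9 of 15 (background 12.3%) and 5 of 13 (background 13.9%), with Hilpda at 2.71 and 3.48.

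Among lymphocytes, NK cells had 1 of 11 (background 5.72%), Gapdh at 1.70, and 0 of 13 in anti-PD-1 (background 5.24%). CD8 T cells had 4 of 13 in control (background 12.4%) and 1 of 13 in anti-PD-1 (background 5.61%), and Tregs 4 of 18 (background 8.49%) and 4 of 15 (background 6.80%). The Treg members that passed were Gapdh (2.40), Aldoa (2.14), Mif (2.00) and Hilpda (1.67) in control and Ddit4 (1.57), Fam162a, Higd1a and Gapdh in anti-PD-1. The median control Treg had 8 glycolytic UMIs per 1000 and the median anti-PD-1 Treg 5, with 90th percentiles of 17 and 10, and the ranges of the libraries overlapped. Conventional CD4 T cells of anti-PD-1 had 2 of 15 (background 10.3%) and other T cells 4 of 15 (background 12.2%) and 4 of 13 (background 12.3%).

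**Figure D5:**
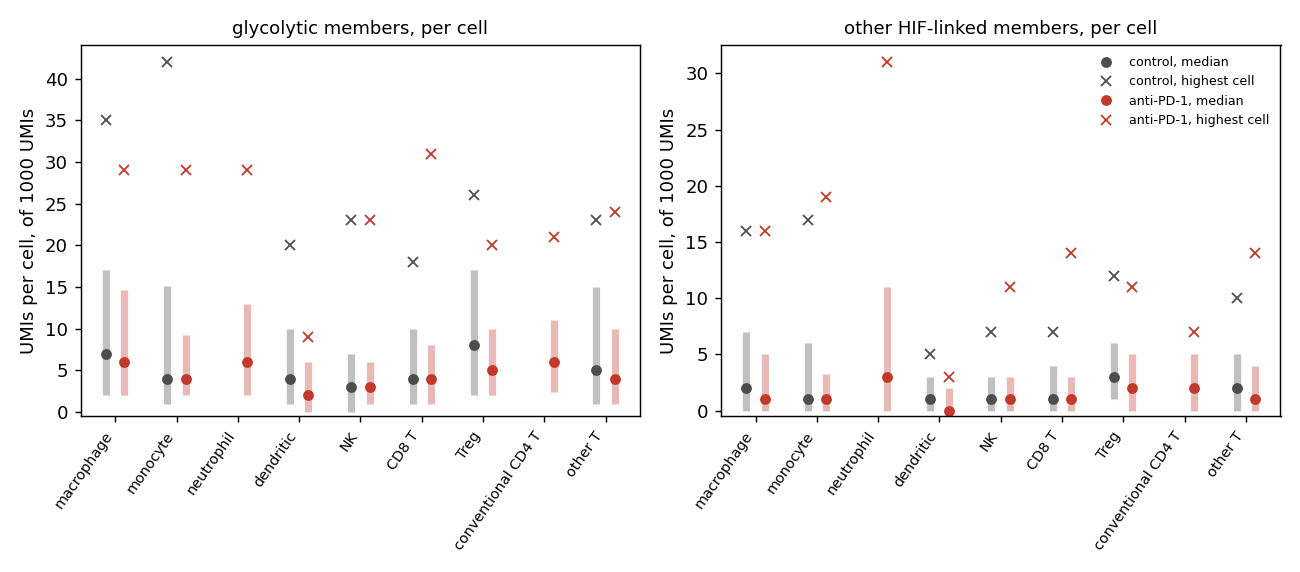
UMIs of glycolytic (left) and other HIF-linked members (right) per cell thinned to 1000 UMIs. Points are medians, bars run from the 10th to the 90th percentile and crosses mark the highest cell, control in grey and anti-PD-1 in red. The neutrophil bar on the right is the longest, reaching 11, and NK and CD8 T bars are short.

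The glycolytic and other HIF-linked sums of a cell were positively correlated in every class and library measured. Pearson correlations over thinned cells were 0.63 and 0.57 in macrophages (170 and 194 cells), 0.64 and 0.52 in monocytes (170 and 358) and 0.54 in neutrophils (195). They were 0.28 and 0.41 in NK cells, 0.52 and 0.33 in CD8 T cells, 0.54 and 0.23 in Tregs and 0.53 and 0.43 in other T cells. As Spearman's rho, macrophages were at 0.62 and 0.56, monocytes at 0.58 and 0.27 and neutrophils at 0.52. Rank correlations were weaker in several lymphocyte classes: 0.12 and 0.23 in NK cells, 0.41 and 0.20 in CD8 T cells and 0.44 and 0.10 in Tregs. Other T cells were at 0.52 and 0.31. Cells of a class share their library and thinned depth, and the correlation of the glycolytic sum with a macrophage's total UMIs was −0.03 and −0.16. In control monocytes and Tregs it was 0.29 and 0.38.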

How the data were processed

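The deposited values are raw UMI counts per gene and barcode, empty barcodes included, from Cell Ranger 2.1 on mm10 according to the submitters' processing notes. Barcodes with at least 1000 UMIs and at most 10% mitochondrial UMIs were kept, and classes were set by marker gates. The gates were T (Cd3 genes at least 2 UMIs), NK (Ncr1, Klrb1c and Klre1 at least 2), macrophage (C1q genes at least 5 and 1 UMI over a short list of macrophage genes that includes Csf1r, Adgre1, Ms4a7 and Cd68), monocyte (Csf1r, Ms4a6c, Chil3, F13a1, Ace and Treml4 at least 3, C1q at most 4), neutrophil (S100a8 and S100a9 at least 5 and Csf3r, Cxcr2, Retnlg, Il1r2, Hdc and Mmp9 at least 2) and dendritic (Flt3, Cd209a, Xcr1, Clec9a, Zbtb46, Ccr7, Fscn1, Ccl22 and Siglech at least 3), with C1q and monocyte maximums for T cells, NK cells and neutrophils. Cd8, Cd4, Foxp3 and Ikzf2 split the T cells, and T cells with an Ncr1 UMI (20 and 68) were left out. Cells with Cd4 and Ikzf2 but no Foxp3 or Cd8 UMI were placed in other T cells. That class is mixed, with 10 and 34 UMIs of Foxp3 and 47 and 66 of Cd4. At the T gate 20 and 57 cells had exactly 2 UMIs, and 51 and 196 had 1 fewer. Doublets were handled only by leaving out cells in more than 1 gate.

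UMIs were summed per class and library. Levels have exact Poisson limits, ratios conditional binomial limits and shares Clopper-Pearson limits, all at 95%. The limit for a count of 0 is instead 3 counts of the total. A count under 3 UMIs was set to 3 in a ratio. For contrasts between cells and for spread, 1000 UMIs were drawn from each cell. Barcodes of 10 to 50 UMIs stood for free RNA. Named in full were the 6 members per class with the largest ratio among those of at least 20 UMIs and of at least 50 CPM in either library, and the 8 genes most correlated with the members over macrophages. Other members are named to describe roles and were chosen after their values were seen. The members and gene lists were chosen with earlier results of these data known. The calculations were tested on simulated counts. Python 3.11.15, numpy 2.4.6, scipy 1.17.1 and pandas 2.3.3 were used. Positions and exons come from GENCODE M21 and promoters from RefSeq (GRCm38.p6), which lists Ero1l as Ero1a. Slc2a3 and Ndrg1 were not matched there. Per-sample columns left unused numbered 0. With 1 library a group no count model was fitted.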

Additional observations from a re-analysis of the deposited data

Results flagged for a closer look

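The control neutrophils were too few for the comparisons above at a minimum of 1000 UMIs. With a minimum of 500 UMIs the control library held 25 neutrophils (median 806 UMIs), in which Hilpda was at 1943 CPM (1428 to 2584, 47 UMIs) and Bnip3 at 413 CPM (198 to 760, 10 UMIs). The 272 anti-PD-1 neutrophils at that minimum had 1914 CPM (1792 to 2042) of Hilpda and 223 CPM (183 to 270) of Bnip3, with overlapping intervals for both genes. For the other HIF-linked sum the control neutrophils had 5209 CPM (4339 to 6202) and those of anti-PD-1 had 3847 CPM (3673 to 4026), and these intervals do not overlap. Their glycolytic sums were 6201 CPM (5249 to 7277) and 6960 CPM (6725 to 7200), with overlapping intervals.

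Barcodes with 10 to 50 UMIs, which hold free RNA and not cells, also carried the members. The glycolytic sum was 5777 CPM in control and 4397 CPM in anti-PD-1 free RNA, and the other HIF-linked sum was 2733 and 1787 CPM. The tumour epithelial markers Epcam, Krt8, Krt18, Krt19 and Cldn4 were at 0 CPM there in both libraries.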

How the results depend on the processing

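No member named by the rule and called at 1.5-fold changed sign under the alternatives, but of 34 such calls 13 were under 1.5-fold in at least 1 of them. Those not given above were Hilpda in CD8 T cells (−0.38 in thinned cells), Fam162a in CD8 T cells (−0.50 with gates read on thinned cells) and other T cells (−0.57 with each cell weighted alike), Slc16a3 in other T cells (−0.53 in thinned cells), and Tpi1 in CD8 T cells (−0.52 with median-of-ratios scaling). Ldha in dendritic cells was at −0.39 with gates read on thinned cells. Of the class sums 46 values moved beyond the main counting interval and 156 did not. The counts of members called lower moved by more than 1.5 times as follows. With cells thinned to 1000 UMIs they were 7 in macrophages, 9 in monocytes, 5 in dendritic cells, 9 in Tregs and 2 in NK cells. With gates read on thinned cells they were 8, 11, 5, 11 and 2 in the same order and 12 in other T cells. Thinning leaves fewer members with 20 UMIs: 22 in macrophages, 23 in monocytes, 8 in dendritic cells, 18 in Tregs and 20 in NK cells. In the same order 12.5%, 11.8%, 16.7%, 10.4% and 8.06% of all genes were lower in thinned cells. Under the other alternatives no share of all genes was taken, so those counts cannot be set against one. With each cell weighted alike the counts of members called lower were 13 in monocytes and 4 in NK cells. Without the deepest 5% of cells they were 5 in dendritic cells and 2 in NK cells. The NK count was 0 at a minimum of 1500 UMIs, with gate minimums doubled and without the lower quartile of cells by UMIs. CD8 T cells had 7 with median-of-ratios scaling and 6 with genes of at least 50 UMIs, where other T cells had 4. Members higher in Arg1-positive anti-PD-1 macrophages numbered 7 at a minimum of 500 UMIs. Of the other count values under the alternatives, 115 stayed within 1.5 times. The lower-quartile, second-draw, all-UMI, free RNA in Arg1 strata and S100a8/S100a9 alternatives were chosen after seeing the data. At a minimum of 500 UMIs cells were thinned to 500, which also changes Fano factors. No paired analysis was possible because each group has 1 library.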
